A study of Mus musculus with 6 samples.

Results

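Arachidonic acid is stored in membrane phospholipids and is freed by phospholipase A2 enzymes, or through diacylglycerol and the endocannabinoid 2-arachidonoylglycerol. Once free, it is the substrate of cyclooxygenases and lipoxygenases, whose products act on keratinocytes and immune cells of the skin. Endocannabinoids are arachidonate-containing lipids that act on the cannabinoid receptors CB1 and CB2, and hydrolases end their action by breaking them down to arachidonate. The 10 genes described here, of 21368 named genes on the array, belong to these routes. They are 7 phospholipase A2 genes (the cytosolic Pla2g4a, Pla2g4b and Pla2g4e, the secreted Pla2g2e, Pla2g2f and Pla2g12a, and the calcium-independent Pla2g6), the endocannabinoid hydrolases Faah and Mgll, and the diacylglycerol lipase Daglb. They were chosen by name and matched to 14 probes through the RefSeq accession of each probe, and 9 of the 10 genes had a probe bright enough to test.

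RNA was measured on 1-colour Agilent arrays in cells sorted from the epidermis of male mice. The mice carried a reporter in which the keratin 15 promoter drives EGFP, and after depilation their skin received either acetone as the vehicle or DMBA (7,12-dimethylbenz[a]anthracene), a hydrocarbon that damages DNA and starts skin tumours. Cells high in EGFP and in integrin alpha 6 and negative for Sca1 were collected 3 days later, so each sample holds stem cells of the hair follicle together with cells of the hair germ, which lie at the base of the resting follicle. Each group held 3 samples from different mice, with 1 array per sample. Strain, age, dose and the number of mice per sample are not given in the sources used here.

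The series asks which fates stem cells of the follicle take under stress, and the comparison here is which of these enzyme genes differed 3 days after DMBA. Of the 9 tested genes, Faah showed the largest difference, with 3.49-fold less signal after DMBA. Faah encodes fatty acid amide hydrolase, which breaks down the endocannabinoid anandamide. The other 8 differed by 1.02-fold to 1.51-fold. No member passed the threshold over all genes (0 of 9; limma, Benjamini-Hochberg adjusted p under 0.05, where 0% of 17848 genes passed), and 1 member, Faah, had an unadjusted p under 0.05, as did 5.23% of all genes. At that unadjusted level, 2.73% of all genes were higher and 2.49% lower.

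For most of these genes the spread between arrays of a group was as large as the difference between treatments. The median log2 fold change of the 9 tested members was -0.16, beside -0.01 for all genes, with 3 members higher and 6 lower; 51.2% of all genes were lower. The groups lay apart in 1 member on the higher side (Pla2g4b) and 1 on the lower side (Faah), where 4.88% and 5.17% of all genes had groups that do not overlap in those directions. In bulk RNA, fewer cells of a type and less RNA per cell cannot be told apart.

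The sequence before a start site of 3 of the endocannabinoid genes is shown because Faah, whose groups did not overlap, can be set beside Mgll and Daglb, whose groups overlapped. Each line gives the 250 bases before a transcript start listed from RefSeq (GRCm38.p6), 5′ to 3′ on the strand of the gene. Annotated genes can begin further upstream: all 250 bases of the Faah window and the last 9 of the Daglb window lie inside the annotated gene, and the Mgll window shown lies outside it. Capitals mark GCGTG or its reverse complement CACGC, the core letters bound by the aryl hydrocarbon receptor, the receptor that binds hydrocarbons such as DMBA. The windows are chr4:116017925-116018174 on the minus strand for Faah, chr6:88724162-88724411 on the plus strand for Mgll, and chr5:143464243-143464492 on the plus strand for Daglb.
Faah: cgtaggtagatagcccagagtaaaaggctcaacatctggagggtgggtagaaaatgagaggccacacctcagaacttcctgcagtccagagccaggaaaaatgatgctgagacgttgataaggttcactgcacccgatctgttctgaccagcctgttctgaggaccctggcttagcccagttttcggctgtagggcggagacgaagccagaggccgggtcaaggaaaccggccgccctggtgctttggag
Mgll: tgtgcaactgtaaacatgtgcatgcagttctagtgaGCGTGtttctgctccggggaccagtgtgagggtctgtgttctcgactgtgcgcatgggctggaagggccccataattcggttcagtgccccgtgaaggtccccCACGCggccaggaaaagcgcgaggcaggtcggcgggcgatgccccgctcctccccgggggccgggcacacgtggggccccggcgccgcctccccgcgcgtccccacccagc
Daglb: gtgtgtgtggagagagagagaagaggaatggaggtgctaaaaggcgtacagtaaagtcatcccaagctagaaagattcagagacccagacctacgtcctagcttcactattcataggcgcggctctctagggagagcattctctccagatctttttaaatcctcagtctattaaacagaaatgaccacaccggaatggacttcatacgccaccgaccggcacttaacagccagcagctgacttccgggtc
The core letters were searched on both strands and were found 0 times in the Faah window, 2 times in the Mgll window shown and 0 times in the Daglb window. A second Mgll window, at chr6:88724454-88724703 and inside the annotated gene, held 6 matches, with 74.8% G or C and 40 CpG pairs. Of all 32851 such windows, 28.2% held at least 1 match. The Faah window was 55.6% G or C with 9 CpG pairs, the Mgll window shown 68.0% with 23, and the Daglb window 49.2% with 9, beside medians of 52.4% and 6 over all windows. RefSeq windows were matched for 9 of the 10 members. Apart from Mgll, 2 members had matches, Pla2g4a (1 in one of its windows) and Pla2g6 (1). A match is a description of letters and not a binding site. Every value below is a log2 intensity relative to the 75th percentile of its array, and levels are not compared between genes, because probes differ in brightness.

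**Figure D1:**
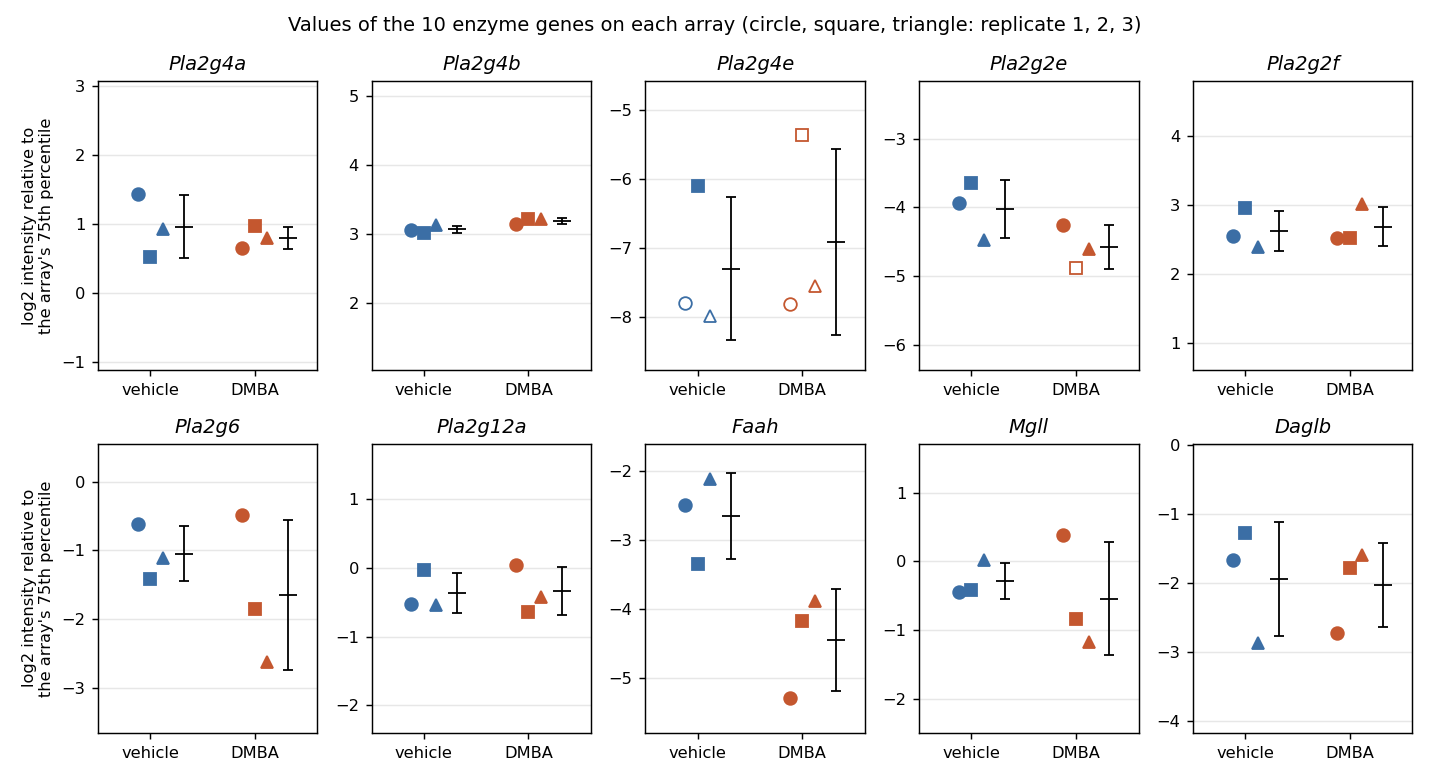
Log2 intensity relative to each array's 75th percentile (vertical axis; every panel spans the same number of log2 units) for the 10 genes on the 3 vehicle (blue) and 3 DMBA (orange) arrays, with the mean and SD of each group as black bars; open symbols were not well above background. The groups of Faah and, with 3.13 against 3.14, of Pla2g4b do not overlap, and those of the others do.

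Among the hydrolases, Faah lay at -2.49, -3.35 and -2.11 on vehicle 1 to 3 and at -5.29, -4.18 and -3.89 on DMBA 1 to 3. All 3 DMBA arrays were below all 3 vehicle arrays, and DMBA 1 was the lowest. Its probe was well above background on all 6 arrays, so neither group is a bound. The lowest signal well above background was -6.55, -5.03 and -5.91 on DMBA 1 to 3, so the Faah signal on DMBA 2 was dim. The means were -2.65 ± 0.63 (SD, n = 3) in vehicle and -4.45 ± 0.74 in DMBA. The log2 fold change was -1.80 (SE 0.49; 95% interval from -2.98 to -0.62; limma adjusted p = 0.752), which ranks 222 by p among 17848 genes and did not pass the threshold. The value was -1.13 with another background correction, normexp (limma adjusted p = 0.674).

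The percent of probes that were well above background on an array went from 77.0 to 83.6 in vehicle and from 69.3 to 80.9 in DMBA. With that percent in the fit, the Faah value was -2.50. Leaving out each array in turn gave values from -2.15 (without vehicle 2) to -1.38 (without DMBA 1). The genes whose values followed those of Faah most closely over the 6 arrays were Jmjd1c, Rufy1 and Zfp235. Their root mean square differences from Faah were 0.15, 0.20 and 0.29 on the log2 scale after centring, beside a median of 1.16 over all genes. These genes were picked as the closest among all genes, so small differences follow from the choice. A link with Faah was not tested.

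Mgll encodes monoacylglycerol lipase, which splits 2-arachidonoylglycerol into arachidonate and glycerol. Its brightest probe lay at -0.44, -0.42 and 0.02 on vehicle 1 to 3 and at 0.39, -0.84 and -1.17 on DMBA 1 to 3. DMBA 1 was the highest of the 6 arrays and DMBA 2 and 3 were the lowest, so the groups overlapped. Its log2 fold change was -0.25 (SE 0.44; 95% interval from -1.33 to 0.82; limma adjusted p = 1.00).

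Mgll had 4 probes in all, assigned to 2 transcript accessions. The other probes that could be tested gave log2 fold changes of 0.00 and -0.44. The last could not be tested, being well above background on 2 vehicle arrays and no DMBA array. None of the 3 tested probes had groups that lay apart. Over all members, 1 of 11 tested probes, that of Faah, had an unadjusted limma p under 0.05, beside 4.9% of all 44955 probes.

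**Figure D2:**
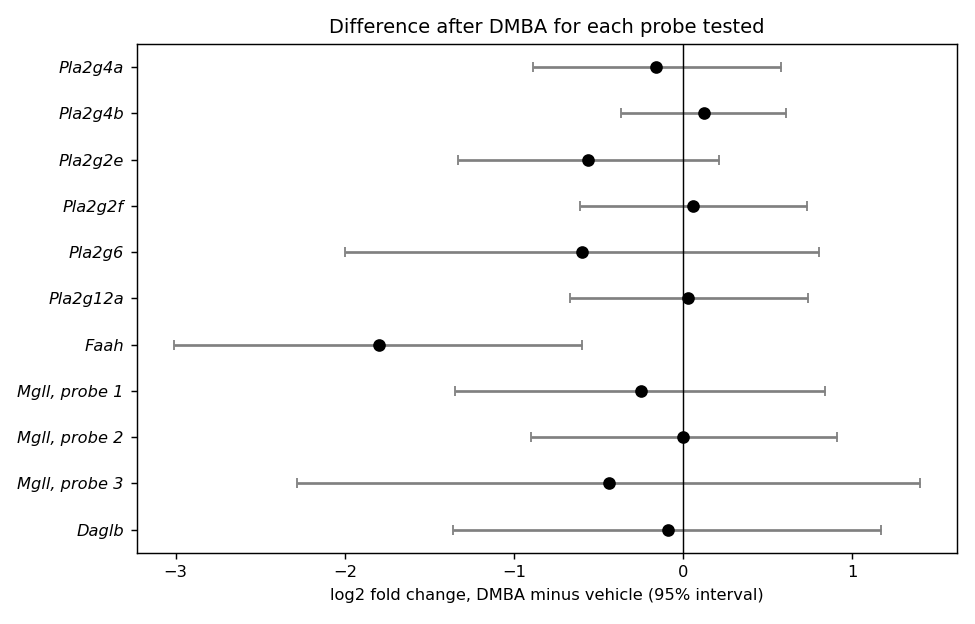
Log2 fold change, DMBA minus vehicle (horizontal axis), with its 95% interval from limma for each of the 11 probes of the enzyme genes that could be tested. The interval of the Faah probe lies below 0, and the intervals of the other 10 probes include 0.

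Daglb encodes diacylglycerol lipase beta, which forms 2-arachidonoylglycerol. Its values were -1.67, -1.28 and -2.88 on vehicle 1 to 3 and -2.73, -1.78 and -1.59 on DMBA 1 to 3. Vehicle 3 and DMBA 1 were both low, and the groups overlapped. The log2 fold change was -0.09 (SE 0.51; 95% interval from -1.33 to 1.15; limma adjusted p = 1.00), so a change of more than 2-fold in either direction lies within the interval.

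The Daglb probe is printed at 10 places on each array, which gives its spread between spots of 1 array. Differences between samples in RNA extraction, labelling and hybridization are not part of that spread and were not measured. The SD over the spots of an array was from 0.05 to 0.13. Between arrays of a group the SD of the averaged value was 0.83 in vehicle and 0.61 in DMBA. The low values of vehicle 3 and DMBA 1 were therefore seen at every spot: the spots of vehicle 3 ran from -3.06 to -2.73 and those of DMBA 1 from -2.92 to -2.56, below every spot of the other 4 arrays.

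**Figure D3:**
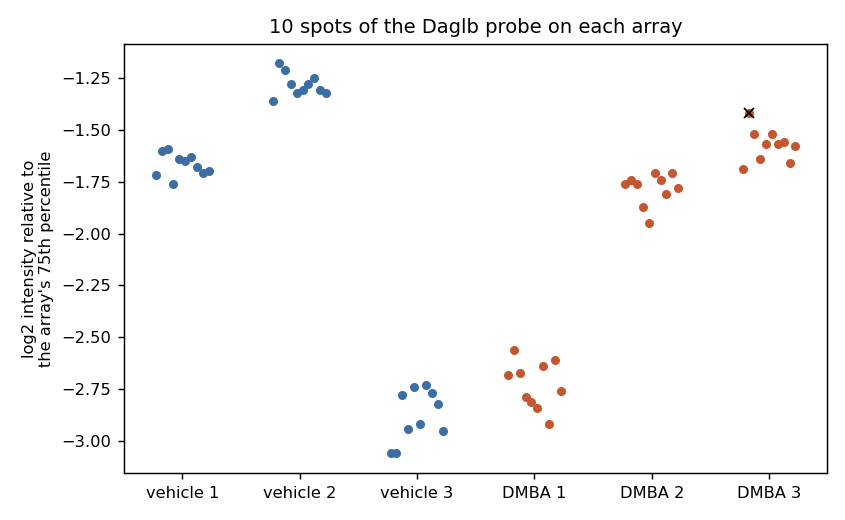
Log2 intensity relative to the 75th percentile of the array (vertical axis) for the 10 spots of the Daglb probe on each of the 6 arrays (horizontal axis); the cross marks 1 spot of DMBA 3 that the scanner software called an outlier and that was left out. Spots of an array lie close together, while vehicle 3 and DMBA 1 lie below the other 4 arrays.

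Of the cytosolic phospholipases, Pla2g4a encodes the calcium-dependent enzyme that prefers phospholipids with arachidonate and starts most prostaglandin synthesis. It lay at 1.43, 0.52 and 0.93 on vehicle 1 to 3 and at 0.65, 0.97 and 0.79 on DMBA 1 to 3. The DMBA arrays all fell inside the range of the vehicle arrays. Its difference on the log2 scale was -0.16 (SE 0.30; 95% interval from -0.87 to 0.56; limma adjusted p = 1.00), and it was 0.08 without vehicle 1. In RefSeq, Pla2g4a is the neighbour of Ptgs2, the inducible cyclooxygenase, which takes up the arachidonate it frees. Ptgs2 lay at -6.85, -7.99 and -6.39 on vehicle 1 to 3 and at -5.75, -7.12 and -5.33 on DMBA 1 to 3. It was well above background on a single array, of the DMBA group, and was not tested.

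Pla2g4b encodes the beta enzyme of the cytosolic family. Its values were 3.06, 3.02 and 3.13 on vehicle 1 to 3 and 3.14, 3.22 and 3.21 on DMBA 1 to 3. The spread within groups was small (SD 0.05 in vehicle and 0.04 in DMBA), and the lowest DMBA array, at 3.14, was just above the highest vehicle array, at 3.13. The difference was small too, 0.12 on the log2 scale or 1.08-fold (SE 0.20; 95% interval from -0.36 to 0.60; limma adjusted p = 1.00). Its annotation overlaps that of Sptbn5, and whether the probe reads that gene was not tested.

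Pla2g4e encodes an enzyme of the same family that also transfers acyl chains to form the precursors of anandamide. It was well above background on 1 array, vehicle 2, with -6.10, and was not tested. Its other vehicle values were -7.80 and -7.99, and the DMBA values were -7.82, -5.36 and -7.55, none of them well above background. The highest value, that of DMBA 2, belongs to the array whose lowest signal well above background was the highest of the 6, at -5.03.

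Secreted phospholipases act outside the cell, on membranes, lipoproteins and the lipids of the skin barrier. Pla2g2e, an enzyme known from hair follicles, lay at -3.93, -3.65 and -4.48 on vehicle 1 to 3 and at -4.25, -4.88 and -4.60 on DMBA 1 to 3. Vehicle 1 and 2 were the highest arrays and DMBA 2 and 3 the lowest, and DMBA 2 was not well above background. For this probe the log2 fold change was -0.56 (SE 0.31; 95% interval from -1.31 to 0.20; limma adjusted p = 0.990). With each array's share of probes above background in the fit it was -0.12, and with normexp -0.26. A second, dimmer probe was well above background on 1 array of each group and was not tested.

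Pla2g2f, a secreted enzyme known from the suprabasal epidermis, lay at 2.55, 2.96 and 2.39 on vehicle 1 to 3 and at 2.52, 2.53 and 3.02 on DMBA 1 to 3. Vehicle 2 and DMBA 3 stood above the other arrays, with a log2 fold change of 0.06 (SE 0.27; 95% interval from -0.60 to 0.71; limma adjusted p = 1.00). Of 8 suprabasal markers, 7 were tested, and their summed linear signal relative to the 75th percentile was 76.1 to 147 in vehicle and 112 to 148 in DMBA. Flg had no probe under that name. The part of suprabasal cells in the Pla2g2f signal was not tested.

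Pla2g12a, a secreted enzyme of a separate structural group, lay at -0.53, -0.04 and -0.54 on vehicle 1 to 3 and at 0.04, -0.64 and -0.42 on DMBA 1 to 3. Vehicle 2 and DMBA 1 were the highest arrays. DMBA minus vehicle gave a log2 fold change of 0.03 (SE 0.28; 95% interval from -0.65 to 0.72; limma adjusted p = 1.00).

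Pla2g6 encodes the calcium-independent phospholipase that remodels membrane phospholipids. Its values were -0.62, -1.42 and -1.11 on vehicle 1 to 3 and -0.48, -1.85 and -2.62 on DMBA 1 to 3. On the brightest probe of each gene, its DMBA arrays were the most scattered of any tested member (SD 1.09). A dimmer tested Mgll probe had an SD of 1.34 in DMBA. For Pla2g6, DMBA 1 was the highest of all 6 arrays and DMBA 2 and 3 the lowest. The brightest Mgll probe had the same order of these 3 arrays. Over all 6 arrays the log2 fold change of Pla2g6 was -0.60 (SE 0.57; 95% interval from -1.97 to 0.78; limma adjusted p = 1.00).

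Several members moved when DMBA 1 was left out. Without it, 3 of the 9 tested members had an unadjusted limma p under 0.05, all lower, where 6.87% of all genes did in either direction and 4.07% on the lower side. They were Pla2g6 with a log2 fold change of -1.18 (limma adjusted p = 0.676), Mgll on its brightest probe with -0.72 (limma adjusted p = 0.713) and Faah with -1.38 (limma adjusted p = 0.658). The other tested Mgll probes gave 0.06 and -1.18 without DMBA 1, neither with an unadjusted limma p under 0.05. Without DMBA 3 instead, the value of Pla2g6 was -0.11 and that of Mgll 0.06. Faah kept its sign without each array in turn, as did Pla2g2e, Pla2g4b and Pla2g6, while the sign of the other 5 turned at least once.

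**Figure D4:**
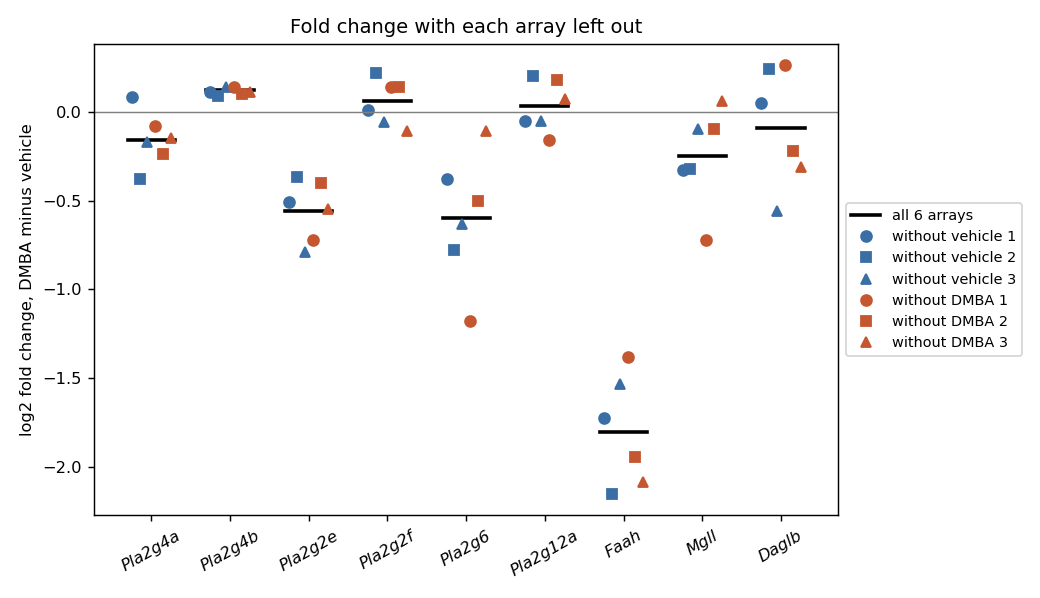
Log2 fold change, DMBA minus vehicle (vertical axis), of the 9 tested enzyme genes with all 6 arrays (black line) and with each array left out (blue for a vehicle array, orange for a DMBA array). Faah runs from -2.15 to -1.38, and Pla2g6 from -1.18 without DMBA 1 to -0.11 without DMBA 3.

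The other genes of these routes were taken from 8 lists, with 92 of 108 listed genes tested. None passed the threshold over all genes (0 of 92 by limma), and at an unadjusted p under 0.05 there were 4 higher and 2 lower (6.52%, beside 5.23% of all genes). Their median log2 fold change was 0.03, beside -0.01 for all genes. The 4 higher and 2 lower genes included 3 of 7 tested genes of endocannabinoid synthesis and 1 of 10 of other endocannabinoid breakdown. The rest were 1 of 13 endocannabinoid receptors and carriers, and 1 of 8 genes that act first downstream of arachidonate. Among other phospholipase A2 genes 0 of 14 tested genes reached that level, among phospholipase C genes 0 of 11, and among regulators and receptors of phospholipase A2 0 of 13. Among genes that add acyl chains to lysophospholipids or couple fatty acids to coenzyme A it was 0 of 16. In the last list Acsl4, which couples arachidonate to coenzyme A, had a log2 fold change of -0.42 (SE 0.45).

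Both lower genes act with the members in endocannabinoid signalling. They entered the test through the vehicle group, with 1 DMBA array for Dagla and none for Cnr1. In an alternative added after seeing the data, with only genes well above background on all 6 arrays neither was tested, and 4 of 82 pathway genes were higher and 1 lower, Agpat1, at an unadjusted limma p under 0.05, beside 5.74% of all genes there. Dagla, the alpha form of the enzyme that Daglb encodes, lay at -4.26, -3.56 and -2.84 on vehicle 1 to 3 and at -6.47, -7.12 and -5.06 on DMBA 1 to 3. All DMBA arrays were below all vehicle arrays, and 1 of them was well above background. Its log2 fold change was -2.66 (SE 0.62; 95% interval from -4.16 to -1.17; limma adjusted p = 0.680), and -1.05 with normexp. Daglb, with an interval from -1.33 to 1.15, overlaps that range slightly, and the difference between these genes was not tested.

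Cnr1, which encodes the cannabinoid receptor CB1, lay at -4.71, -4.59 and -3.84 on vehicle 1 to 3 and at -5.79, -7.12 and -5.70 on DMBA 1 to 3. The groups lay apart, and no DMBA array was well above background. With the scanner's background correction its signal was 2.18-fold lower after DMBA when each DMBA array was given the higher of 2 values. These were the array's lowest signal well above background and the probe's own signal. On DMBA 1 and 3 the probe's own signal was the higher, although it was not well above background. The 2.18-fold value is therefore not a strict lower bound, and it leaves out the spread between arrays. The fitted log2 fold change was -1.82 (SE 0.47; limma adjusted p = 0.724). It was -0.55 with normexp, a smaller difference than 2.18-fold, so the 2.18-fold value applies to the scanner's correction only. Cnr2, the gene of the receptor CB2, was well above background on all arrays and had a log2 fold change of -0.10 (SE 0.24; 95% interval from -0.68 to 0.49).

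On DMBA 1 and 3 the values of Dagla and Cnr1 lay near the background limit of the array. On DMBA 2 both lay at -7.12, below that array's limit of -5.03 and close to its lowest signal of all, -7.32. Only 1 of these DMBA values, of Dagla, was well above background. Both fitted fold changes therefore rest largely on DMBA signals that were not well above background. The lowest signal well above background was -6.58, -6.64 and -6.82 on vehicle 1 to 3 and -6.55, -5.03 and -5.91 on DMBA 1 to 3. That limit was higher on DMBA 2 and 3 than on any other array. With each array's share of probes above background in the fit, the log2 fold changes of Dagla and Cnr1 were -2.86 and -1.58.

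On the higher side, Abhd4 and Gde1 encode enzymes that act one after the other in a route to anandamide. Abhd4 lay at -0.94, -0.08 and 0.21 on vehicle 1 to 3 and at 0.70, 0.93 and 0.90 on DMBA 1 to 3. Its log2 fold change was 1.11 (SE 0.34; limma adjusted p = 0.844). Gde1 lay at -0.46, 0.64 and -0.16 in vehicle and at 1.03, 1.01 and 1.06 in DMBA, with a log2 fold change of 1.03 (SE 0.33; limma adjusted p = 0.855). In both genes the DMBA arrays lay close together and above all vehicle arrays. Napepld, the phospholipase D that makes anandamide in 1 step, had a value of 0.42 (SE 0.31; 95% interval from -0.33 to 1.17).

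The other breakdown enzymes gave values in both directions. Naaa, an acid amidase that also degrades N-acylethanolamines, had a log2 fold change of 0.46 (SE 0.34), and the monoacylglycerol hydrolases Abhd6 and Abhd12 had values of -0.02 (SE 0.57) and 0.28 (SE 0.50). Ces2g, a carboxylesterase gene of the same list, lay at -0.25, 1.45 and 0.53 on vehicle 1 to 3 and at 2.25, 2.73 and 2.24 on DMBA 1 to 3. All 3 DMBA arrays were above all vehicle arrays, with a log2 fold change of 1.83 (SE 0.46; limma adjusted p = 0.695). With each array left out in turn, the values ran from 1.41 to 2.27 for Ces2g, 0.78 to 1.35 for Abhd4, 0.79 to 1.34 for Gde1, -3.24 to -2.21 for Dagla and -2.08 to -1.36 for Cnr1.

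**Figure D5:**
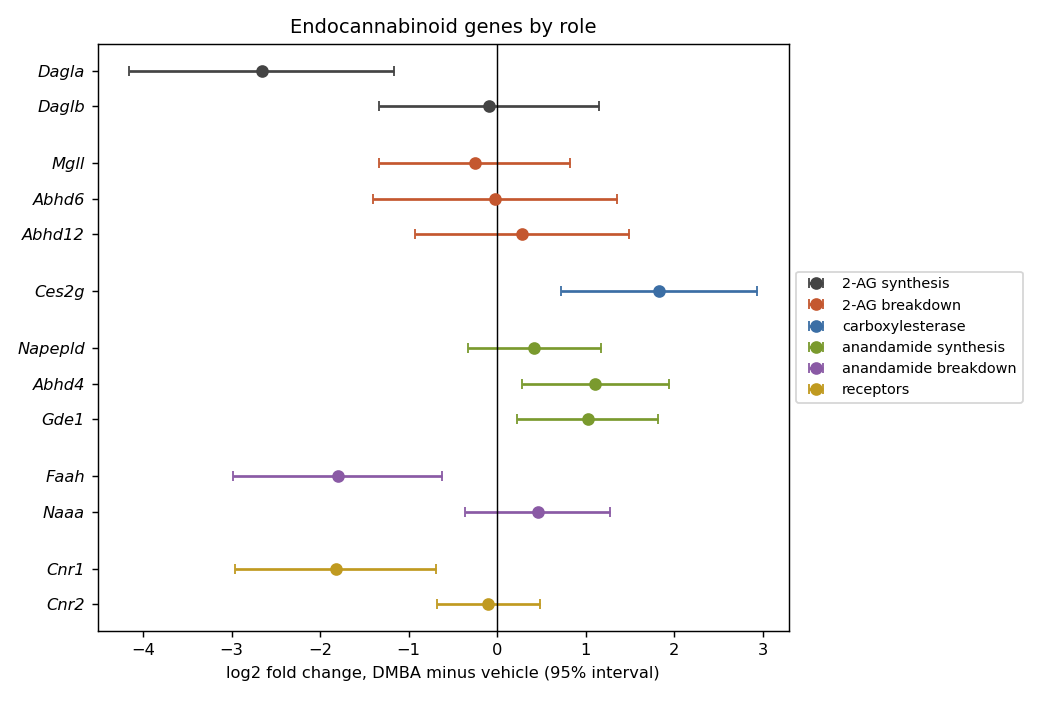
Log2 fold change, DMBA minus vehicle (horizontal axis), with its 95% interval from limma for endocannabinoid genes grouped by role; 2-AG is 2-arachidonoylglycerol. The intervals of Dagla, Faah and Cnr1 lie below 0 and those of Ces2g, Abhd4 and Gde1 above 0, and none of these genes passed the threshold over all genes.

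Downstream of arachidonate, 8 of 10 genes were tested, with 6 higher and 2 lower. The list holds cyclooxygenase and lipoxygenase genes and Alox5ap, the gene of a lipoxygenase-activating protein. Ptgs1, the constitutive cyclooxygenase, lay at -3.0, -1.49 and -2.92 on vehicle 1 to 3 and at -1.23, -1.55 and -1.34 on DMBA 1 to 3. Vehicle 2 fell among the DMBA arrays, so the groups overlapped, and the log2 fold change was 1.1 (SE 0.44; limma adjusted p = 0.942). When each array was left out, the value ran from 0.83 (without vehicle 1) to 1.59 (without vehicle 2). The unadjusted limma p of these fits was 0.138 and 0.00152, so whether Ptgs1 is counted under 0.05 depends on single arrays.

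The positive sort markers were present: Krt15 lay between 5.70 and 6.49 and Itga6 between 1.76 and 2.80 over the 6 arrays. The gene of Sca1, for which the sorted cells were negative, was not among the markers examined here. Of 9 markers of the sorted cells 4 were higher and 5 lower, with a summed linear signal relative to the 75th percentile of 344 to 399 in vehicle and 355 to 525 in DMBA. Lgr5 and Sox9 were lower on every DMBA array than on any vehicle array, with log2 fold changes of -0.64 and -0.50 that did not pass (limma adjusted p = 0.894 and 0.969). Markers of other cells were summed in the same way. For 9 melanocyte markers the sum was 2.97 to 4.48 in vehicle and 4.15 to 6.78 in DMBA, and for 6 markers of fibroblasts and dermal papilla 1.53 to 3.61 and 3.18 to 4.21. Without Col1a2, which held 32.6% to 72.2% of it, the fibroblast sum was 1.01 to 1.25 in vehicle and 1.82 to 2.15 in DMBA, and 5 of the 6 markers were higher. Dcn had a log2 fold change of 1.51 with groups apart (limma adjusted p = 0.445). Without Mlana, which held 5.48% to 62.2% of the melanocyte sum, the other 8 markers summed to 2.65 to 3.52 in vehicle and 1.57 to 4.26 in DMBA. In the melanocyte list 4 markers were higher and 5 lower, with Mlana at 2.72 and Tyrp1 at 3.35 and overlapping groups (limma adjusted p = 0.897 and 0.942). For 10 leukocyte markers the sum was 91.7 to 115 and 88.5 to 142, of which Itgam alone held 92.9% to 97.4%, and the other 9 summed to 2.61 to 8.19 and 3.69 to 4.6. For 5 endothelial markers it was 2.27 to 2.39 and 2.13 to 2.86, mostly from Kdr (87.5% to 91.9%), and for 8 sebaceous gland markers 19.5 to 32.2 and 21.5 to 28.1. Oca2 of the melanocyte list and Pdgfra and Pdgfrb of the fibroblast list were well above background on no array. Their part in the values of Faah, Dagla, Cnr1, Abhd4, Gde1 and Ces2g was not tested. Vehicle 1 lay on a slide of its own, scanned apart from the other 5 arrays. In simulated data with the spread of these arrays, 200 of 17848 genes were changed. Of the 100 changed by 2 on the log2 scale 35% were called, and of the 100 changed by 4, 77%. The share called after adjustment depends on how many genes change, which is not known for these data.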

How the data were processed

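Total RNA was extracted on RNeasy Micro columns and its cDNA carried Cy3, per the labels' protocols. Agilent Feature Extraction (10.7.1.1, per the submitters' processing notes) quantified the spots, and, per the file headers, the deposited scanner files hold background-corrected spot intensity. The deposited series matrix holds intensity divided by each array's 75th percentile (column 75th percentiles from 1.004 to 1.007; medians from 0.154 to 0.172) and was used as an alternative. From each log2 processed intensity the log2 of that array's 75th percentile (from 1355 to 2274, without control spots) was subtracted. Outlier spots were left out, spots of a probe were averaged, and 44955 of 55681 probes well above background on at least 3 of 6 arrays were kept. Probes were named by RefSeq accession through GRCm38.p6, used for names, neighbours and promoter sequences; 28331 probes matched. A gene was represented by its brightest kept probe, which gave 17848 genes.

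DMBA was compared with vehicle with limma 3.58.1 in R 4.3.3 (two-sided, no covariates, adjusted over all genes, threshold 0.05) and tested on simulated data. Where no array of a group was well above background, the difference was also taken against the higher of each array's lowest signal well above background and the probe's own signal. The probe's own signal can be the higher without being well above background, so the result is not a strict bound. The members, lists and tests were chosen with earlier results of these data known. All 10 members are named, then up to 4 genes per list at unadjusted p under 0.05, and Dagla, Abhd6, Abhd12, Naaa, Napepld, Cnr1, Cnr2, Ptgs1, Ptgs2 and Acsl4 whatever their values. Other settings are in the closing section. The number of arrays limits the precision.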

Additional observations from a re-analysis of the deposited data

How the results depend on the processing

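No member passed the threshold under any alternative run, and Faah was lower in each (log2 fold change from -2.50 to -1.13). Signs turned in several genes, among them Pla2g6, and the cause was not tested. With the filter at all 6 arrays, 8 members were tested, and Pla2g2e, Dagla and Cnr1 dropped out. With a block for slide (the same fit as without vehicle 1), Pla2g4a was 0.08, Pla2g12a -0.05, Daglb 0.05, Abhd6 0.32, Abhd12 -0.12 and Acsl4 0.03. With each array's share of probes above background in the fit, Pla2g6 was 0.11, Mgll 0.18, Abhd6 0.77 and Abhd12 -0.41. In that fit the unadjusted limma p was 0.0531 for Cnr1, 0.116 for Abhd4, 0.0631 for Gde1 and 0.0698 for Ptgs1, so their intervals included 0. It stayed under 0.05 for Faah, Dagla and Ces2g. With normexp the unadjusted limma p of Cnr1 was 0.0871. Abhd6 was 0.22 with normexp on the median signal, an alternative added after seeing the data, and 0.17 with the mean of its probes.

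When each array was left out, the count of genes past the threshold ran from 0 to 1 (Apln without vehicle 2), and the count of members at unadjusted p from 1 to 3. The fold change ran from -0.38 to 0.08 for Pla2g4a, -0.11 to 0.22 for Pla2g2f, -0.16 to 0.20 for Pla2g12a, -0.72 to 0.06 for Mgll, -0.56 to 0.26 for Daglb, -0.38 to 0.52 for Abhd6, -0.12 to 0.67 for Abhd12, -0.25 to 0.05 for Cnr2 and -0.69 to 0.03 for Acsl4. With the replicate block, 0 genes passed and Faah kept a value of -1.80 (limma adjusted p = 0.845). Deviations of same-numbered arrays correlated across genes at 0.02, -0.02 and 0.06, and those of differently numbered arrays at -0.06 to 0.04. Each deviation is from a mean of 3 arrays, so these values cannot decide whether the numbers pair the samples.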
